A study of Mus musculus with 32 samples.

Results

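The NRF2 antioxidant target genes Hmox1, Nqo1, Gclm, Gclc, Txnrd1, Srxn1, Slc7a11, Prdx1, Me1 and Gsr were followed by RNA-seq in mouse bone marrow-derived macrophages (BMDMs) with and without the nuclear receptor Nur77. The 10 genes were taken by name from a table of 25067 genes, with the transcript of highest mean count standing for each gene. All 10 were in the table, and 9 of them were among the 11186 genes whose level was high enough to be tested. BMDM-WT came from wild-type littermates and BMDM-Nur77-KO from whole-body Nur77 knockout mice, all male and 6 to 12 weeks old. The knockout was made with a Cre recombinase driven by the CMV promoter acting on a loxP-flanked Nr4a1 gene, and the Cre was bred out afterwards, although the genotype label of the knockout samples reads cre. The study's methods give C57Bl6/J as the strain of the Cre mice and state none for the loxP-flanked mice. Which part of the gene is deleted was not given in the sources used here. Marrow cells of both genotypes were grown for 7 days in L929-conditioned medium and then given 100 ng/ml lipopolysaccharide (LPS), the outer membrane component of Gram-negative bacteria, for 0, 1, 5 or 18 h. Each of the 8 genotype-by-time groups held 4 libraries. The study's methods state that the macrophages were seeded into multiwell plates in 4 replicates. The number of mice behind the 4 was not given in the sources used here, so each p-value measures the spread between these libraries, which may be technical.

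NRF2, encoded by Nfe2l2, is the transcription factor through which cells answer oxidants and electrophiles. In resting cells KEAP1 and the CUL3 ubiquitin ligase mark it for degradation, and when KEAP1 is modified NRF2 accumulates, pairs with a small MAF protein and binds antioxidant response elements (AREs) near genes for glutathione synthesis, thioredoxin recycling, NADPH supply and haem breakdown. BACH1 also pairs with small MAF proteins and represses many of the same genes, with Hmox1 as the best known. In macrophages exposed to LPS these genes handle the oxidants made during activation, and the metabolite itaconate, made by the Acod1 product, is a known activator of NRF2. RNA levels measure none of the protein modification, so the values here concern transcripts only.

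Levels are given as CPM, counts divided by the TMM-scaled size of their library, and differences as log2 fold changes with their standard error (SE) and the Benjamini-Hochberg adjusted p of edgeR's quasi-likelihood test over all 11186 genes. A gene was called at an adjusted p under 0.05. Library totals over the kept transcripts ran from 8742362 to 15780926 counts. Nr4a1, which encodes Nur77, was measured at 0 h as 19.6 ± 4.24 CPM in the BMDM-WT libraries and 5.20 ± 1.16 CPM in the BMDM-Nur77-KO libraries (SD, n = 4), and 1 h later as 437 ± 60.0 and 190.5 ± 40.7 CPM. It was thus lower in the libraries labelled as knockout but not absent from them. At 5 h it was at 0.932 ± 0.108 and 0.314 ± 0.262 CPM, and at 18 h each library of both genotypes had 0 to 5 counts. The summed level of 6 macrophage markers was 9667 to 18010 CPM in all libraries, with the lowest values in BMDM-Nur77-KO at 18 h, whereas the lists of neutrophil, B cell, T and NK cell, fibroblast, erythroid and mast cell markers each summed to at most 30.6 CPM. The summed level of 4 dendritic cell markers rose to between 10.3 and 21.6 CPM at 5 h in both genotypes, from at most 2.21 CPM at 0 h. This sum is mostly Xcr1, with a mean count of 52.9 over all libraries. The mean counts of Zbtb46, Flt3 and Cd209a were 4.77, 0.81 and 0.8. The part of these markers in the results was not tested. In bulk RNA, fewer cells of a type and less RNA per cell cannot be told apart. 3 libraries stood apart from their groups: BMDM-Nur77-KO 5 h replicate 1 (mean correlation with its group 0.967), BMDM-Nur77-KO 18 h replicate 4 (0.981) and BMDM-WT 18 h replicate 3 (0.99). In each, the deviation from the group mean followed transcript GC content (Spearman -0.65 in all 3). Such a trend was not particular to them, since other libraries reached 0.60 in the opposite direction (BMDM-Nur77-KO 0 h replicate 4). Values that rest on the 3 libraries are therefore also given without them or with counts corrected for GC.

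The promoters of these genes are shown because NRF2 acts through a short DNA motif there. RefSeq (GRCm38.p6) supplied windows from 250 bases before to 50 bases after the start for 7 of the 10 genes, 10 windows in all. Hmox1, Gclc and Gsr were not among them. The ARE core TGACNNNGC, searched on both strands, occurred in a window of Gclm, Prdx1, Txnrd1, Me1 and Srxn1. It was not found in the windows of Slc7a11 and Nqo1. For comparison, 12.4% of all 32851 windows and 14% of the 27025 genes with a window held it, so a match at this length is common. The 5 matches are written along the motif, from 5′ to 3′, with the core in capitals and 10 bases on each side. They lie at chr3:122245413-122245441 for Gclm, chr4:116685456-116685484 for Prdx1, chr10:82859104-82859132 for Txnrd1, chr9:86695902-86695930 for Me1 and chr2:152105542-152105570 for Srxn1, all on the minus strand of the genome.
Gclm: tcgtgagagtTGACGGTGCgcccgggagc
Prdx1: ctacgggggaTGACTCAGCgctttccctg
Txnrd1: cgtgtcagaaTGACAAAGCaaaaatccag
Me1: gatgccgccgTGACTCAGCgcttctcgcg
Srxn1: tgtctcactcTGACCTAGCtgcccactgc
Prdx1 and Me1 carry the same 9 letters, which also contain the AP-1 element TGANTCA (found in 7.81% of windows). On the gene's strand the match begins 134 bases before the start in Gclm, 133 before it in Prdx1, 92 before a start inside the Txnrd1 gene and 6 before it in Me1, whereas that of Srxn1 begins 29 bases after the start. The start is that of the RefSeq window, which for Gclm and Slc7a11 is not the end of the gene's annotated span. Srxn1 also holds AP-1 elements 102 and 45 bases before its start, and Prdx1 another 237 bases before its own. The motif AAAGGTCA (NBRE), which Nur77 binds as a monomer, was in none of the 10 windows and in 1.51% of all windows. Beyond the ARE core, the motifs were chosen after values of these genes had been seen.

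Prdx1 and Slc7a11 had the largest differences between genotypes before LPS, and the 250 bases before their starts are given for reference, 5′ to 3′ along the gene. The Prdx1 stretch is chr4:116685349-116685598 (plus strand). Its ARE core lies on the opposite strand, so the capitals show the reverse complement of the core. The Slc7a11 stretch is chr3:50443614-50443863 (minus strand) and holds no capitals because no core was found.
Prdx1: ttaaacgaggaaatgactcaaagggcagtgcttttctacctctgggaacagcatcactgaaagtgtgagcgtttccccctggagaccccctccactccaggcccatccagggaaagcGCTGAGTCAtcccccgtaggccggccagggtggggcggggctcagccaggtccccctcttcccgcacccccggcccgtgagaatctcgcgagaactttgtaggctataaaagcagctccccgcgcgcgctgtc
Slc7a11: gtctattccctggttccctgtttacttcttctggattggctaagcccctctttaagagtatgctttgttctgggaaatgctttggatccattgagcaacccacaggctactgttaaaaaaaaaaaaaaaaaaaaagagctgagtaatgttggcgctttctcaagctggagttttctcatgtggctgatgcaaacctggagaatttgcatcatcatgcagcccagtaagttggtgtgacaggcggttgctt
The 2 stretches differ in base composition, with 61.6% G and C for Prdx1 and 43.2% for Slc7a11. The Slc7a11 stretch carries the amino acid response element TGATGCAA on both strands, 66 and 47 bases before the start, a motif found in 0.895% of all windows and in no other window of these genes.

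Per kilobase of transcript, the 10 genes lay far apart in resting BMDM-WT. Prdx1, a peroxiredoxin that reduces hydrogen peroxide, led with 1107 ± 89.1 CPM per kb (SD, n = 4), followed by Hmox1 with 284 ± 13.4. Txnrd1 (55.9 ± 5.25) and Srxn1 (45.6 ± 5.29) came next, and then Gsr (16.9 ± 2.08), Gclc (12.8 ± 0.394) and Gclm (4.75 ± 0.433). Me1 (0.480 ± 0.0308), Nqo1 (0.391 ± 0.355) and Slc7a11 (0.310 ± 0.0251) were near the bottom. The spread of Nqo1 spanned both Me1 and Slc7a11, so its place against either was not resolved. At 18 h of LPS in BMDM-WT, Prdx1 (2817 ± 124 CPM per kb) and Hmox1 (1686 ± 108) still led, and Gclm had passed Gclc with 29.0 ± 1.19 against 12.2 ± 0.952 CPM per kb.

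**Figure D1:**
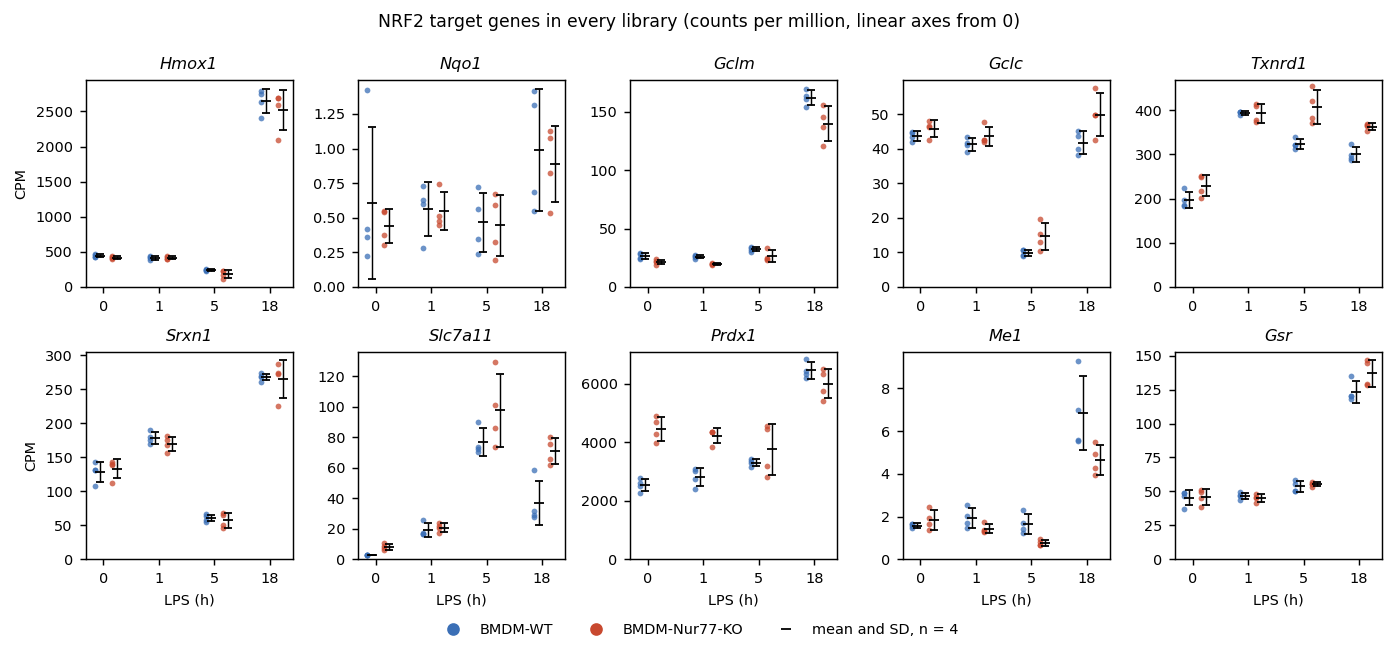
CPM (y axis, linear, from 0) of the 10 NRF2 target genes at 0, 1, 5 and 18 h of LPS (x axis), 1 point per library, with BMDM-WT in blue, BMDM-Nur77-KO in red and black bars for the mean and SD of 4 libraries. Hmox1 stayed at or under 466 CPM through 5 h and was at least 2093 CPM at 18 h, whereas Slc7a11 was highest at 5 h and Txnrd1 had risen by 1 h.

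The LPS comparisons asked which of these genes answered LPS, and when, in each genotype. The answer came in 3 steps that were alike in direction in both genotypes for most genes. At 1 h only Slc7a11, Txnrd1 and Srxn1 were called, all higher. At 5 h Hmox1, Gclc and Srxn1 were below their resting level while Slc7a11 and Txnrd1 were above it. At 18 h 8 of the 9 tested genes were above their resting level in each genotype, the exception being Gclc. To be tested, a gene needed a mean above 1 CPM per kb in at least 1 group. Me1 met this only at 18 h (2.08 in BMDM-WT and 1.42 in BMDM-Nur77-KO, with 0.236 to 0.584 in all other groups). Slc7a11 met it only after LPS (0.310 and 0.885 at 0 h), and Nqo1 in no group. The 9 genes were thus partly chosen by their level after LPS. In BMDM-WT the counts were 3 higher and 0 lower at 1 h, where 10.4% of all tested genes were higher and 9.81% lower. They were 5 higher and 3 lower at 5 h (30.8% and 39.1% of all genes) and 8 higher and 0 lower at 18 h (32.9% and 33.6%). In BMDM-Nur77-KO they were 3 and 0 at 1 h (7.12% and 5.08% of all genes), 4 and 5 at 5 h (33.1% and 38.2%) and 8 and 0 at 18 h (34.7% and 34.6%). The median log2 fold change of the 9 genes at 18 h was 1.45 in BMDM-WT and 1.32 in BMDM-Nur77-KO, beside 0.003 and 0.002 over all tested genes. The comparisons of 1 genotype share its 0 h libraries.

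**Figure D2:**
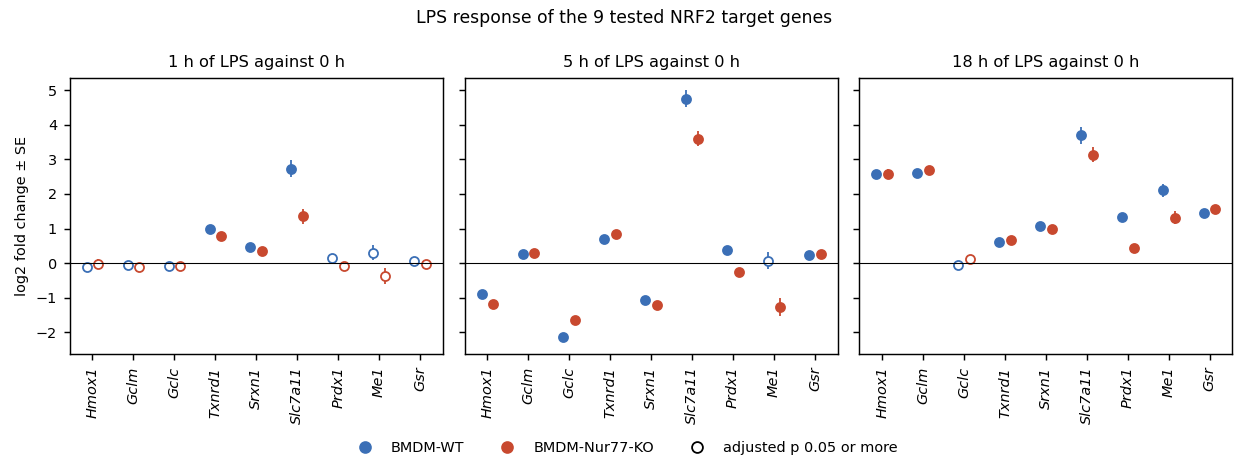
Log2 fold change with SE (y axis) of the 9 tested NRF2 target genes after 1, 5 and 18 h of LPS against 0 h, for BMDM-WT in blue and BMDM-Nur77-KO in red, with open circles for an adjusted p of 0.05 or more. At 18 h all but Gclc are filled and above 0, from 0.43 for Prdx1 in BMDM-Nur77-KO to 3.69 for Slc7a11 in BMDM-WT.

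Hmox1 (NM_010442, chr8:75093618-75100593) encodes haem oxygenase 1, which cuts haem into biliverdin, iron and carbon monoxide. Its level was 424, 430, 466 and 460 CPM in the 4 BMDM-WT libraries at 0 h and 382 to 436 CPM at 1 h. It then dropped to 244, 250, 243 and 225 CPM at 5 h and climbed to 2639, 2793, 2409 and 2742 CPM at 18 h. The 5 h and 18 h libraries lay wholly below and wholly above the resting ones. The log2 fold change was -0.89 (SE 0.12, adjusted p = 1.35e-07) at 5 h and 2.57 (SE 0.13, adjusted p = 1.71e-17) at 18 h, an 11.0-fold rise between 5 and 18 h. In BMDM-Nur77-KO the same course ran from 398 to 439 CPM at 0 h through 116, 174, 226 and 222 CPM at 5 h to 2686, 2595, 2687 and 2093 CPM at 18 h. The lowest value in that genotype at 5 h and at 18 h was in each case the library that stands apart.

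Slc7a11, Gclc and Gclm feed glutathione synthesis, and Gsr keeps glutathione reduced. Slc7a11 (NM_011990, chr3:50364936-50499087) encodes the light chain of the cystine importer xCT. Its BMDM-WT libraries held 2.72, 2.60, 3.08 and 3.03 CPM at 0 h, 16.6, 17.3, 16.5 and 26.1 CPM at 1 h, 72.5, 70.2, 90.1 and 73.9 CPM at 5 h and 28.0, 29.3, 58.6 and 31.8 CPM at 18 h. No library of a later time overlapped the resting ones, and 58.6 CPM belongs to the BMDM-WT library that stands apart. The rise reached a log2 fold change of 4.75 (SE 0.24, adjusted p = 3.05e-17) at 5 h, and the level at 18 h was lower than at 5 h by a log2 fold change of -1.05 (SE 0.19, adjusted p = 1.68e-05). In BMDM-Nur77-KO the rise from 0 h was 1.36 (SE 0.22) at 1 h, 3.59 (SE 0.22) at 5 h and 3.13 (SE 0.21) at 18 h, all called. The step from 5 to 18 h in that genotype (-0.47, SE 0.19, adjusted p = 0.028) had an adjusted p of 0.14 when counts were corrected for GC, and its call was lost on leaving out 4 of the 8 libraries in turn.

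The genes for the 2 subunits of glutamate-cysteine ligase, which makes the first and rate-limiting step of glutathione synthesis, moved apart. Gclc (NM_010295, chr9:77754535-77794489), the catalytic subunit, was at 44.8, 41.8, 43.5 and 44.5 CPM at 0 h in BMDM-WT, dropped to 10.8, 8.87, 10.6 and 9.34 CPM at 5 h and was back at 40.0, 38.2, 43.7 and 45.3 CPM at 18 h. The 5 h libraries did not overlap any other time (log2 fold change -2.14, SE 0.12, adjusted p = 6.01e-16), and at 18 h the difference from rest was -0.06 (SE 0.11, adjusted p = 0.63). Gclm (NM_008129, chr3:122245487-122267215), the modifier subunit, was at 28.5, 23.9, 25.2 and 28.8 CPM at 0 h and at 161, 154, 164 and 170 CPM at 18 h, a 6.12-fold rise (log2 fold change 2.61, SE 0.10, adjusted p = 1.47e-20). Its rise of 0.28 (SE 0.10, adjusted p = 0.012) at 5 h was not called with counts corrected for GC (0.12, adjusted p = 0.30), a correction that also moved the median of all genes by 0.13 in this comparison. The rise of Gclm at 5 h in BMDM-Nur77-KO (0.28, SE 0.10, adjusted p = 0.012) was not called without BMDM-Nur77-KO 5 h replicate 1 (0.14, adjusted p = 0.14). In BMDM-Nur77-KO Gclc dropped by 1.65 (SE 0.12) on the log2 scale at 5 h, and Gclm rose by 2.70 (SE 0.10) at 18 h, both called. Gsr (NM_010344, chr8:33653238-33698162), glutathione reductase, held between 37.0 and 50.8 CPM at 0 h in the 8 libraries of both genotypes and between 118 and 147 CPM at 18 h, with no overlap. Its rise at 5 h was small, 0.25 (SE 0.09, adjusted p = 0.014) in BMDM-WT and 0.27 (SE 0.09, adjusted p = 7.15e-03) in BMDM-Nur77-KO. The call in BMDM-WT was lost without 0 h replicate 2 (0.16, adjusted p = 0.098) or 5 h replicate 4 (0.21, adjusted p = 0.058), and that in BMDM-Nur77-KO without 0 h replicate 2 (0.20, adjusted p = 0.052). Its log2 fold change at 18 h was 1.45 (SE 0.09, adjusted p = 3.44e-15) in BMDM-WT and 1.58 (SE 0.09, adjusted p = 3.37e-16) in BMDM-Nur77-KO.

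Txnrd1, Srxn1 and Prdx1 belong to the thioredoxin arm, in which TXNRD1 reduces thioredoxin, thioredoxin reduces peroxiredoxins such as PRDX1, and SRXN1 repairs overoxidised peroxiredoxins. Txnrd1 (NM_001042514, chr10:82833951-82897724) stood at 198, 183, 185 and 224 CPM at 0 h in BMDM-WT and at 395, 388, 396 and 396 CPM at 1 h. It then held 312 to 339 CPM at 5 h and 287 to 324 CPM at 18 h. It was the only one of the 10 genes whose mean in BMDM-WT was highest at 1 h (log2 fold change 1.00, SE 0.07, adjusted p = 3.67e-12). In BMDM-Nur77-KO the rise at 1 h was 0.78 (SE 0.07, adjusted p = 1.01e-09), and the highest library, with 455 CPM, was a 5 h library, the one that stands apart. Srxn1 (NM_029688, chr2:152105524-152111376) went up, down and up again. Its BMDM-WT libraries held 107 to 143 CPM at 0 h, 170 to 189 CPM at 1 h, 55.5 to 66.6 CPM at 5 h and 261 to 273 CPM at 18 h, and each time was separate from the others. The log2 fold changes were 0.48 (SE 0.10, adjusted p = 8.02e-04), -1.08 (SE 0.11, adjusted p = 2.09e-10) and 1.06 (SE 0.10, adjusted p = 1.90e-10). BMDM-Nur77-KO followed the same course with 0.35 (SE 0.10, adjusted p = 0.019), -1.22 (SE 0.11, adjusted p = 1.34e-11) and 0.99 (SE 0.10, adjusted p = 7.15e-10), although the call at 1 h was lost on leaving out BMDM-Nur77-KO 0 h replicate 2 (adjusted p = 0.11) or either of 2 of the 1 h libraries.

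Prdx1 (NM_011034, chr4:116685599-116700000) was the most abundant of the 10 genes. In BMDM-WT it held 2601, 2283, 2501 and 2773 CPM at 0 h, 2416 to 3078 CPM at 1 h, 3165 to 3415 CPM at 5 h and 6451, 6330, 6862 and 6210 CPM at 18 h. The log2 fold change at 18 h was 1.35 (SE 0.11, adjusted p = 5.54e-12). In BMDM-Nur77-KO it held 4701, 3976, 4896 and 4300 CPM at 0 h, 3856 to 4369 CPM at 1 h, 2831, 3191, 4467 and 4557 CPM at 5 h and 6498, 6344, 5765 and 5423 CPM at 18 h. The resting level of the knockout thus lay above all BMDM-WT libraries up to 5 h, and its rise at 18 h was 0.43 (SE 0.11, adjusted p = 1.07e-03). The small drop of the knockout at 5 h (-0.25, SE 0.11, adjusted p = 0.045) was not called without the 3 libraries that stand apart (-0.13, adjusted p = 0.21), and the rise of BMDM-WT at 5 h (0.38, SE 0.11, adjusted p = 2.91e-03) was not called with counts corrected for GC (0.22, adjusted p = 0.24).

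Me1 and Nqo1, which make NADPH and reduce quinones, were nearly silent. Me1 (NM_001198933, chr9:86581363-86695914), the cytosolic malic enzyme, was at 1.67, 1.56, 1.65 and 1.45 CPM at 0 h in BMDM-WT and at 5.55, 7.00, 9.26 and 5.57 CPM at 18 h, the highest being the library that stands apart. The rise at 18 h was 2.11 (SE 0.19, adjusted p = 3.28e-11) in BMDM-WT and 1.32 (SE 0.19, adjusted p = 5.00e-07) in BMDM-Nur77-KO. Me1 was among the tested genes only through its 18 h level. At 5 h it dropped in BMDM-Nur77-KO (-1.27, SE 0.26, adjusted p = 9.76e-05), whereas the BMDM-WT value was 0.07 (SE 0.24, adjusted p = 0.81). Nqo1 (NM_008706, chr8:107388225-107403205), NAD(P)H quinone dehydrogenase 1 and a textbook NRF2 target, had 2 to 19 counts per library, 0.193 to 1.43 CPM, and did not pass the filter on low values. Its mean was 0.607 ± 0.551 CPM (SD, n = 4) at 0 h and 0.99 ± 0.438 CPM at 18 h in BMDM-WT, and 0.443 ± 0.123 and 0.888 ± 0.272 CPM in BMDM-Nur77-KO. The 0 h and 18 h libraries overlapped in both genotypes, and 1 resting BMDM-WT library held 1.43 CPM. With a looser filter (edgeR's filterByExpr) the log2 fold change at 18 h was 0.73 (SE 0.41, adjusted p = 0.12) in BMDM-WT and 1.02 (SE 0.45, adjusted p = 0.043) in BMDM-Nur77-KO, and the latter had an adjusted p of 0.059 with no filter. No difference between genotypes was detectable at this depth (adjusted p 0.58 to 1.0 over the 4 times).

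Between 5 and 18 h, 7 of the 9 genes rose in each genotype. In BMDM-WT 1 fell, beside 35.6% of all tested genes that rose and 33.9% that fell, and in BMDM-Nur77-KO 2 fell, beside 35.2% and 34.1%. The 7 were Hmox1, Gclm, Gclc, Srxn1, Prdx1, Me1 and Gsr in both. Me1 was among the tested genes only through its 18 h level, so its rise into 18 h was partly set by the filter. The gene that fell in BMDM-WT was Slc7a11, joined in BMDM-Nur77-KO by Txnrd1 (-0.17, SE 0.07, adjusted p = 0.049), whose call was lost on leaving out 6 of the 8 libraries in turn and without the libraries that stand apart (-0.11, adjusted p = 0.19). The log2 fold changes of the 7 genes ran from 0.96 (Prdx1) to 3.46 (Hmox1) in BMDM-WT and from 0.68 (Prdx1) to 3.77 (Hmox1) in BMDM-Nur77-KO.

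The genotype comparison asked whether these genes were at another level without Nur77, before LPS and at each time after it. They did not move as a block. Slc7a11 and Prdx1 were higher in BMDM-Nur77-KO before LPS, Txnrd1 and Slc7a11 were higher at 18 h, Gclm was lower at the earlier times, and Srxn1 and Gsr were not called at any time. The calls numbered 3 of 9 at 0 h (2 higher and 1 lower), where 12.5% of all tested genes were called. They were 2 of 9 at 1 h (6.47% of all genes), 5 of 9 at 5 h (23.8%) and 3 of 9 at 18 h (21.7%), with both directions among them each time. The median log2 fold change of the 9 genes was 0.07 before LPS and -0.002, 0.05 and -0.02 after 1, 5 and 18 h. At 5 h none of the 5 calls held when only the 8 libraries of that time were fitted, although the log2 fold changes were alike in that fit (Hmox1 -0.38, Gclm -0.30, Gclc 0.56, Txnrd1 0.33 and Me1 -1.10, adjusted p 0.071 to 0.27). These calls thus rest on a spread shared with the other times.

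**Figure D3:**
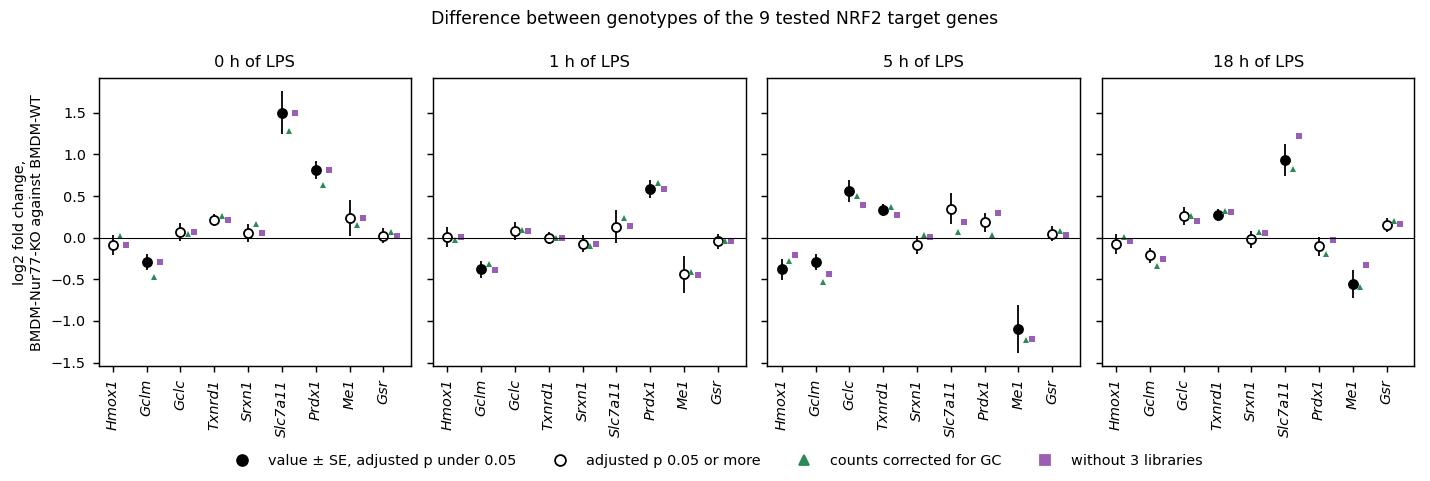
Log2 fold change of BMDM-Nur77-KO against BMDM-WT (y axis) of the 9 tested NRF2 target genes at 0, 1, 5 and 18 h of LPS, with black circles for the value and its SE (open where the adjusted p was 0.05 or more), green triangles for counts corrected for GC and purple squares for the fit without the 3 libraries that stand apart. Slc7a11 at 0 h (1.5) and 18 h (0.94) and Prdx1 at 0 h (0.82) and 1 h (0.59) stay above 0 under all 3.

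Slc7a11 was 2.83-fold higher in BMDM-Nur77-KO at 0 h. The knockout libraries held 10.8, 6.13, 8.61 and 7.15 CPM against 2.60 to 3.08 CPM in BMDM-WT, with no overlap (log2 fold change 1.5, SE 0.26, adjusted p = 1.37e-04). At 1 h, with 17.2, 24.0, 20.2 and 21.5 CPM against 16.5 to 26.1 CPM, and at 5 h, with 129, 86.3, 101 and 73.9 CPM against 70.2 to 90.1 CPM, the genotypes overlapped and were not called. At 18 h the knockout libraries held 65.8, 61.8, 80.2 and 75.3 CPM against 28.0 to 58.6 CPM, again with no overlap (log2 fold change 0.94, SE 0.19, adjusted p = 4.29e-04). The difference at 18 h was 1.22 (adjusted p = 1.04e-07) without the libraries that stand apart. Its rise over the resting level was smaller in the knockout, by -1.15 on the log2 scale at 5 h (SE 0.32, adjusted p = 0.041 for the difference between genotypes), although that call was lost on leaving out 11 of the 16 libraries in turn, with an adjusted p of up to 0.11. At 1 h the same difference was -1.37 (SE 0.33, adjusted p = 0.16), and it was called without the libraries that stand apart (-1.35, adjusted p = 8.28e-03).

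Before LPS, Prdx1 was 1.76-fold higher in BMDM-Nur77-KO (log2 fold change 0.82, SE 0.11, adjusted p = 5.00e-06) and 1.5-fold higher at 1 h (0.59, SE 0.11, adjusted p = 6.09e-04), with no overlap at either time. At 5 h the knockout libraries spread from 2831 to 4557 CPM around the BMDM-WT values (0.18, SE 0.11, adjusted p = 0.21), and without BMDM-Nur77-KO 5 h replicate 1, the lowest of them, the difference was 0.30 (adjusted p = 0.043). At 18 h it was -0.11 (SE 0.11, adjusted p = 0.54). The difference between genotypes of its LPS response was -0.92 at 18 h (SE 0.16, adjusted p = 1.24e-04), and remained called on leaving out each of the 16 libraries in turn (adjusted p at most 5.03e-04). At 5 h that difference was -0.63 (SE 0.16, adjusted p = 0.019), but 0.13 was its adjusted p with counts corrected for GC.

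Gclm was lower before LPS in BMDM-Nur77-KO, with 23.7, 19.2, 22.3 and 21.4 CPM against 23.9 to 28.8 CPM (log2 fold change -0.30, SE 0.10, adjusted p = 0.042), and at 1 h, with 19.6, 19.6, 20.9 and 19.2 CPM against 24.3 to 27.2 CPM (-0.38, SE 0.10, adjusted p = 0.013). The genotypes did not overlap at either time. At 5 h its value was -0.29 (SE 0.10, adjusted p = 0.032) and overlapped through BMDM-Nur77-KO 5 h replicate 1, without which it was -0.43 (adjusted p = 8.51e-04). At 18 h it was -0.21 (SE 0.09, adjusted p = 0.092), and -0.34 (adjusted p = 3.96e-03) with counts corrected for GC. The difference was therefore small at every time and its call moved with single libraries, being lost at 0 h and at 5 h on leaving out 6 of the 8 in turn, and at 1 h on leaving out 1 of 8 (adjusted p = 0.050). Gclc went the other way at 5 h, with 19.8, 15.2, 12.9 and 10.5 CPM in BMDM-Nur77-KO against 8.87 to 10.8 CPM (0.56, SE 0.13, adjusted p = 2.77e-03), and the value without BMDM-Nur77-KO 5 h replicate 1, its highest library, was 0.39 (adjusted p = 0.024). At 18 h Gclc was not called in the main fit and the genotypes overlapped. It was called higher in BMDM-Nur77-KO by DESeq2 (0.263, adjusted p = 0.0466) and with counts corrected for GC (0.255, adjusted p = 0.025).

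Txnrd1 was higher at 5 h in BMDM-Nur77-KO, with 455, 381, 421 and 371 CPM against 312 to 339 CPM (log2 fold change 0.33, SE 0.07, adjusted p = 2.00e-03), and at 18 h, with 366, 353, 368 and 365 CPM against 287 to 324 CPM (0.27, SE 0.07, adjusted p = 7.37e-03). The genotypes did not overlap at 5 or 18 h, and at 1 h their means differed by less than the spread (393 ± 21.4 and 394 ± 3.62 CPM). At 0 h the difference was 0.21 (adjusted p = 0.056), and it was called by DESeq2 and with counts corrected for GC. Hmox1 was called lower at 5 h only (-0.38, SE 0.12, adjusted p = 0.024), and without BMDM-Nur77-KO 5 h replicate 1, the library with 116 CPM, the difference was -0.21 (adjusted p = 0.105). Without all 3 libraries that stand apart the adjusted p of the same value was 0.033. Its difference at 18 h was -0.07 (SE 0.12, adjusted p = 0.71). Me1 was lower at 5 h, with 0.968, 0.669, 0.676 and 0.789 CPM against 1.24 to 2.30 CPM (-1.10, SE 0.29, adjusted p = 7.05e-03), and at 18 h, with 3.94, 5.51, 4.92 and 4.26 CPM against 5.55 to 9.26 CPM (-0.55, SE 0.17, adjusted p = 0.018). Neither time overlapped, but at 5 h the value was -0.90 (adjusted p = 0.052) without BMDM-WT 5 h replicate 1, and at 18 h it was -0.33 (adjusted p = 0.17) without the libraries that stand apart. The difference between genotypes of its response at 5 h was -1.34 (SE 0.36, adjusted p = 0.034), a call lost on leaving out 8 of the 16 libraries in turn.

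Over the 9 genes, the LPS response differed between genotypes for 3 at 5 h (Slc7a11, Prdx1 and Me1, where 3.14% of all tested genes were called) and for 1 at 18 h (Prdx1, 9.45% of all genes). At 1 h edgeR called 0 of 9, beside 0.0626% of all genes, with 3 at an unadjusted p under 0.05, and DESeq2 called 1, Slc7a11 (-1.42, adjusted p = 8.24e-03). All 4 called values were negative. Slc7a11 at 5 h and Prdx1 at 18 h rose less in BMDM-Nur77-KO, Prdx1 at 5 h was called higher than rest in BMDM-WT and lower in BMDM-Nur77-KO, and Me1 at 5 h was called lower than rest in BMDM-Nur77-KO only. The calls of Prdx1 against rest at 5 h were each lost in some alternative fits, as given above. The contrasts of the LPS response use the same 0 h libraries as the genotype comparison at 0 h, where Slc7a11 and Prdx1 were higher in the knockout.

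The genes that control NRF2 activity moved with LPS in both genotypes, each on its own schedule. Nfe2l2 itself rose at 1 h, from 259 ± 12.9 to 421 ± 19.1 CPM in BMDM-WT (log2 fold change 0.70, SE 0.10, adjusted p = 1.80e-06), and fell to 177 ± 8.40 CPM at 5 h (-0.55, SE 0.10, adjusted p = 1.55e-05 against rest). At 18 h it stood at 229.5 ± 11.9 CPM (-0.18, SE 0.10, adjusted p = 0.12), so that the NRF2 transcript was not called higher than at rest at the time when 8 of its 9 tested targets were. Keap1, its inhibitor, fell at 1 h and was 3.22-fold higher at 5 h and 3.11-fold higher at 18 h in BMDM-WT. Bach1, the repressor, was highest at 5 h, with 278 ± 10.7 CPM against 114 ± 3.40 at rest (1.28, SE 0.08, adjusted p = 1.35e-14), the time at which Hmox1 was lowest. Slc7a11 was highest at that same time, and a link of Bach1 to either gene was not tested. At 18 h Bach1 had come down to 142 ± 21.7 CPM, still above rest (0.31, SE 0.08, adjusted p = 1.38e-03). Among the small MAF genes, Maff rose from 2.42 ± 0.663 CPM to 91.9 ± 8.79 CPM at 1 h and was down to 1.74 ± 0.361 CPM at 18 h, Mafk was highest at 5 h (107 ± 5.32 CPM) and Mafg at 18 h (42.4 ± 5.93 CPM). Sqstm1, whose product p62 can displace NRF2 from KEAP1, rose 2.45-fold at 1 h and 4.79-fold at 18 h. Nfe2l1, a paralogue that also binds AREs, was 2.52-fold higher at 18 h.

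**Figure D4:**
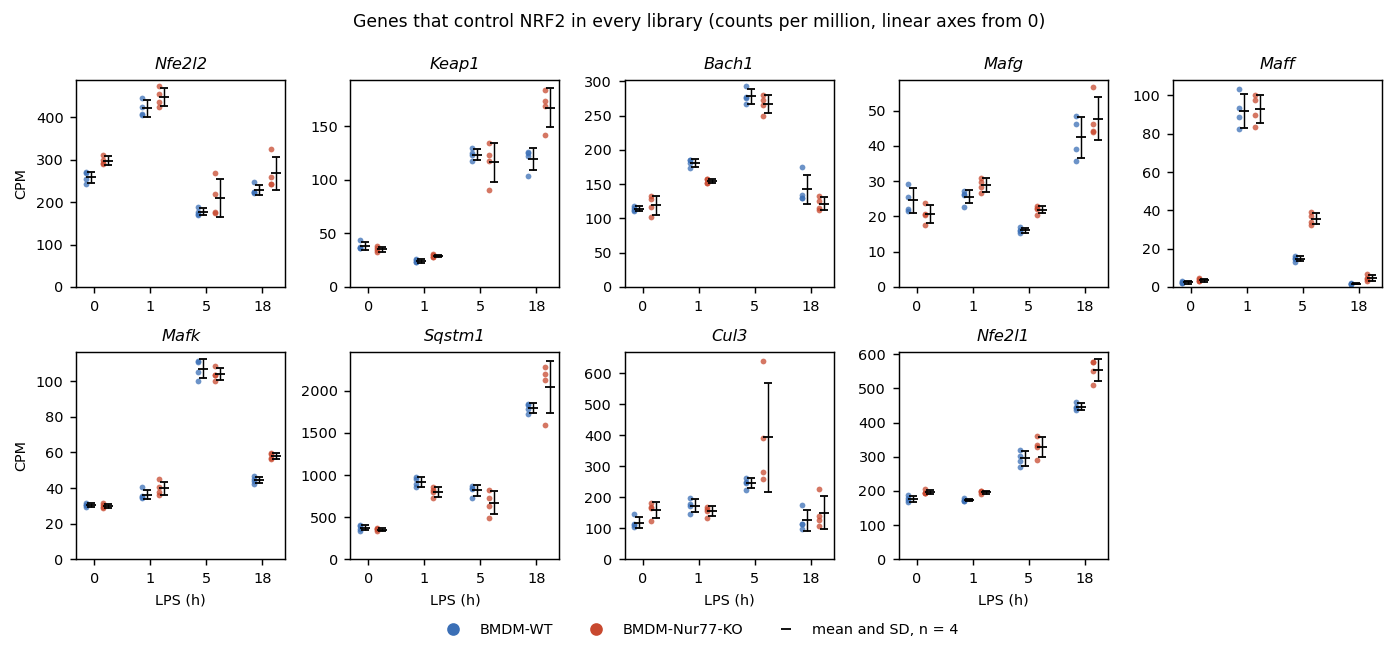
CPM (y axis, linear, from 0) of 9 genes that control NRF2 at 0, 1, 5 and 18 h of LPS (x axis), 1 point per library, with BMDM-WT in blue, BMDM-Nur77-KO in red and black bars for the mean and SD of 4 libraries. Maff is high at 1 h, Bach1 and Mafk are highest at 5 h, and Keap1 at 18 h is separate between genotypes.

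Between genotypes, 0 of these 9 regulators were called at 0 h by edgeR, with 4 at an unadjusted p under 0.05 and 2 called by DESeq2, and 0 at 1 h, with 3 and 1. At 5 h 3 were higher in BMDM-Nur77-KO, where 23.8% of all tested genes were called, and at 18 h 4 were higher and 1 lower, beside 21.7% of all genes. Maff, an immediate early small MAF gene, differed most. Its knockout libraries held 32.5, 37.2, 39.0 and 34.0 CPM at 5 h against 12.9 to 16.2 CPM in BMDM-WT (log2 fold change 1.27, SE 0.14, adjusted p = 9.72e-08), and 4.21, 4.44, 3.38 and 6.72 CPM at 18 h against 1.46 to 2.27 CPM (1.41, SE 0.21, adjusted p = 6.22e-06). At 1 h the means of Maff differed by less than the spread (92.8 ± 7.45 and 91.9 ± 8.79 CPM). Keap1 at 18 h was at 169, 173, 184 and 142 CPM against 104 to 126 CPM (0.49, SE 0.09, adjusted p = 2.15e-04), and its LPS response at 18 h differed between genotypes by 0.61 (SE 0.14, adjusted p = 2.57e-03). Mafk (0.39, SE 0.07, adjusted p = 4.43e-05) and Nfe2l1 (0.31, SE 0.06, adjusted p = 3.97e-04) were also higher at 18 h, and Mafg at 5 h (0.45, SE 0.12, adjusted p = 5.65e-03). The calls of Cul3 at 5 h (0.68, SE 0.22, adjusted p = 0.025) and of Bach1 at 18 h (-0.23, SE 0.08, adjusted p = 0.048) were lost without BMDM-Nur77-KO 5 h replicate 1 (0.34, adjusted p = 0.26) and BMDM-WT 18 h replicate 3 (-0.11, adjusted p = 0.28), respectively.

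The rest of the system was read from 6 further lists, which together with the regulators held 60 genes, 58 of them tested. Among these 58, 36 were higher and 12 lower at 18 h of LPS in BMDM-WT, and 32 higher and 15 lower in BMDM-Nur77-KO. Of all tested genes, 32.9% were higher and 33.6% lower in the first of these comparisons and 34.7% and 34.6% in the second. Their median log2 fold change was 0.61 and 0.47, below that of the 9 NRF2 targets. The 58 genes, like the 9, were partly chosen by their level after LPS. Nos2, nearly absent at 0 h, was tested only through that level. The counts of genes higher after LPS were thus partly set by the filter. At 5 h the counts were 22 higher and 17 lower in BMDM-WT and 20 and 18 in BMDM-Nur77-KO, beside 30.8% and 39.1%, and 33.1% and 38.2%, of all genes. At 1 h they were 13 and 3, and 15 and 2, beside 10.4% and 9.81%, and 7.12% and 5.08%. The counts of the single lists at 18 h in BMDM-WT are to be read against the same 32.9% and 33.6%. Of 10 genes for glutathione transport and use, 6 were higher and 1 lower at 18 h in BMDM-WT. Glrx, a glutaredoxin, rose 3.61-fold, from 88.5 ± 3.56 to 320 ± 24.6 CPM, while Gpx1, a glutathione peroxidase, fell from 252 ± 17.7 to 111 ± 13.0 CPM. All 12 genes of the thioredoxin, peroxiredoxin and superoxide list were tested, and 7 were higher and 4 lower. Sod2, the mitochondrial superoxide dismutase, rose from 51.0 ± 4.37 to 970 ± 34.0 CPM, and Txnip, an inhibitor of thioredoxin, fell from 789 ± 78.0 to 287 ± 15.3 CPM.

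Of the 5 NADPH supply genes 3 were higher and 2 lower at 18 h in each genotype. G6pdx, the entry enzyme of the pentose phosphate pathway, rose 2.44-fold in BMDM-WT, and Idh1 fell from 256 ± 33.6 to 121 ± 5.97 CPM. Of the 7 haem and iron genes 3 were higher and 3 lower. Fth1, the ferritin heavy chain, which also draws reads that near-identical pseudogenes could share, rose 2.49-fold, from 11880 ± 407 to 29570 ± 739 CPM. Slc40a1, the iron exporter ferroportin, had dropped at 5 h from 242 ± 21.0 to 15.5 ± 2.45 CPM (log2 fold change -3.96, SE 0.11, adjusted p = 3.82e-24) and was at 180 ± 17.0 CPM at 18 h. Hmox1 and Slc40a1 thus were both below rest at 5 h. Of the 8 tested genes on the list of other reported NRF2 targets 5 were higher and 2 lower at 18 h in BMDM-WT. Marco, a scavenger receptor, rose from 1.16 ± 0.352 to 70.1 ± 9.02 CPM, Osgin1 fell at 5 h from 8.46 ± 0.702 to 0.928 ± 0.171 CPM, and Ephx1, an epoxide hydrolase, was lower at 18 h (-2.83, SE 0.13, adjusted p = 2.18e-18). Of the 7 producers of oxidants, nitric oxide and itaconate 6 were higher at 18 h in BMDM-WT. Nos2, the inducible nitric oxide synthase, had at most 2 counts in any library at 0 h and 1456 ± 80.9 CPM at 5 h. It was among the tested genes only through its level after LPS. Acod1 rose from 5.98 ± 0.951 to 9475 ± 258 CPM at 5 h.

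**Figure D5:**
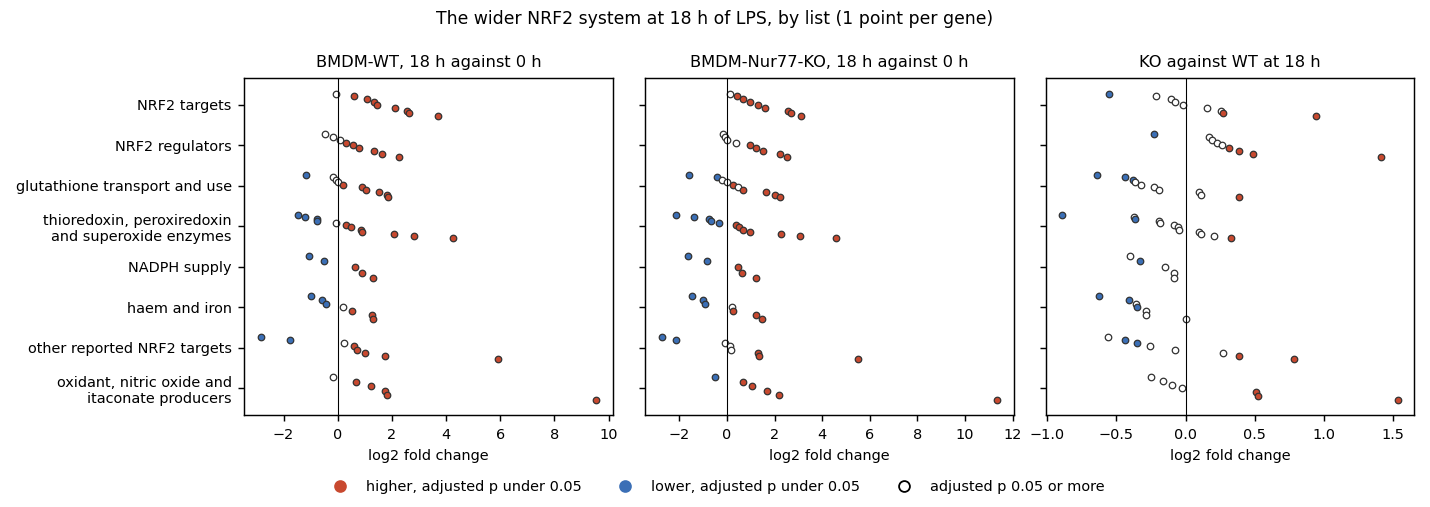
Log2 fold change (x axis) of single genes in the NRF2 target list and 7 further lists (rows) for 18 h of LPS against 0 h in BMDM-WT, the same in BMDM-Nur77-KO, and BMDM-Nur77-KO against BMDM-WT at 18 h, in red where higher, blue where lower and white where the adjusted p was 0.05 or more. Nos2 is left out of the first and second panels because its 0 h libraries had at most 2 counts, and among the NRF2 targets 8 points of 9 are red in each of those panels.

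Between genotypes the 58 genes gave 4 higher and 4 lower before LPS, 5 and 2 at 1 h of LPS, 9 and 7 by 5 h and 11 and 12 by 18 h. The shares of all tested genes called in these comparisons were 12.5%, 6.47%, 23.8% and 21.7%, so the counts before LPS and at 5 h were near that background. Glrx was lower in BMDM-Nur77-KO at all 4 times, by -0.44 (SE 0.09, adjusted p = 8.32e-04) at 0 h, -0.42 (SE 0.09, adjusted p = 1.78e-03) at 1 h, -0.76 (SE 0.09, adjusted p = 1.89e-07) at 5 h and -0.64 (SE 0.08, adjusted p = 9.27e-07) at 18 h. Marco was higher at all 4 times, by 1.22 (SE 0.26, adjusted p = 1.97e-03) at 0 h and 0.79 (SE 0.14, adjusted p = 8.83e-05) at 18 h. Slc3a2, the heavy chain that pairs with the Slc7a11 product in xCT, was higher at 18 h, with 730 ± 81.3 against 558 ± 25.3 CPM (0.39, SE 0.08, adjusted p = 6.34e-04), the time at which Slc7a11 was also higher. Txnip was lower at 18 h (-0.89, SE 0.10, adjusted p = 7.92e-08). At 5 h Nos2 was lower in the knockout (918 ± 101 against 1456 ± 80.9 CPM) and higher at 18 h (1884 ± 112 against 652 ± 41.6 CPM), and Acod1 was lower at 0 h (2.44 ± 0.769 against 5.98 ± 0.951 CPM), all called. Abcb6, a mitochondrial porphyrin transporter, was lower at 5 h (-0.87, SE 0.18, adjusted p = 7.54e-04) and 18 h (-0.62, SE 0.17, adjusted p = 7.34e-03).

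Across the 32 libraries, which share the LPS time course, the log2 levels of the 10 genes formed no single pattern. Gclm and Gsr were most alike (Pearson r 0.97), followed by Hmox1 and Me1 (0.92), whereas Gclc and Slc7a11 ran opposite to each other (-0.56) and Hmox1 and Txnrd1 were unrelated (-0.06). Among all tested genes, the levels most like that of Hmox1 were those of Plxna1 (0.99), Osbpl3 (0.98) and Rims3 (0.98). For Slc7a11 they included Cflar and Bcl2a1a (both 0.97), of which Bcl2a1a has near-identical copies that could share reads. For Nqo1, with its few counts, they were Gpatch2l (0.65), Kif9 (0.65) and Tada3 (0.63). Hmox1 and Nqo1 are both textbook NRF2 targets, and here Hmox1 stood among the most abundant of the list and Nqo1 at 2 to 19 counts per library.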

How the data were processed

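RNA-seq libraries of BMDM-WT and BMDM-Nur77-KO (4 per group, 32 in all) were analysed from 1 deposited table of tag counts. Per the labels and the study's methods, the authors made strand-specific libraries, aligned paired reads to mm10 with HISAT2 2.1.0 (CASAVA 1.8.2 is also named), kept reads with MAPQ above 15 and summed unadjusted tags per RefSeq transcript with HOMER. The deposited values are estimated counts: each mate adds 0.5, so 28.6% of values were not whole, and they were rounded. Of 42361 transcripts, 93 could not be named (0.233 to 1.37% of tags per library) and were left out. Each gene was represented by its transcript of highest mean count, which matters for the 3 target genes with more than 1 transcript (Gclc, Txnrd1 and Me1). Library totals were 8742362 to 15780926 counts, and a count of 0 allows up to 3 counts. Totals and floors cover counting error only.

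Genes with a mean RPKM above 1 in at least 1 group were kept (11186). All 32 libraries were fitted together with 8 group means, without a replicate block, in edgeR 4.0.16 (TMM, quasi-likelihood, Benjamini-Hochberg) under R 4.3.3, for 15 comparisons. The test was checked on simulated data. Alternatives were DESeq2 1.42.0, its size factors, edgeR's filterByExpr, no filter, only the libraries compared, a replicate block, all transcripts summed, a fold limit and leaving out each library. Fits without the libraries that stand apart (the least correlated of each group with a pair under 0.99) and with counts corrected for GC (lowess, span 0.3) were chosen after seeing the data.

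The genes and lists were chosen with earlier results of these data known. All 10 target genes and 9 regulators are named, of each other list the called genes with the largest change in either direction, and for Hmox1, Slc7a11 and Nqo1 the 3 genes most correlated over log2(CPM + 1), of which 1 is not reported here. Slc3a2 is named as the partner of Slc7a11, and other list genes at further times were named after their values were seen.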

Additional observations from a re-analysis of the deposited data

Results flagged for a closer look

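In 15 of the 152 groups of 4 libraries checked (19 genes, 8 groups), 1 library lay far from the other 3, where chance gives about 1 in 20. Of the 15, 6 were in the 3 libraries that stand apart. These were Hmox1 in BMDM-Nur77-KO 18 h replicate 4 (lowest, 2093 CPM), Gclm in BMDM-Nur77-KO 5 h replicate 1 (highest, 33.8 CPM), and in BMDM-WT 18 h replicate 3, always highest, Slc7a11 (58.6 CPM), Gsr (135 CPM), Nfe2l2 (247 CPM) and Bach1 (174.5 CPM). Before LPS the far values were Nqo1 in BMDM-WT replicate 3 (1.43 CPM, highest), Srxn1 in BMDM-Nur77-KO replicate 2 (113 CPM, lowest), Keap1 in BMDM-WT replicate 2 (43.4 CPM, highest) and Nfe2l1 in BMDM-Nur77-KO replicate 4 (205 CPM, highest). At 1 h they were Gclc in BMDM-Nur77-KO replicate 2 (47.6 CPM, highest), Txnrd1 in BMDM-WT replicate 2 (388.5 CPM, lowest), Slc7a11 in BMDM-WT replicate 4 (26.1 CPM, highest), Prdx1 in BMDM-Nur77-KO replicate 1 (3856 CPM, lowest) and Me1 in BMDM-Nur77-KO replicate 3 (1.75 CPM, highest).

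The LPS response differed between genotypes, by edgeR's test of the difference itself, for 6 of these genes. The log2 differences (BMDM-Nur77-KO minus BMDM-WT) were -1.15 for Slc7a11 at 5 h (adjusted p = 0.041), -0.63 and -0.92 for Prdx1 at 5 and 18 h (adjusted p = 0.019 and 1.24e-04), and -1.34 for Me1 at 5 h (adjusted p = 0.034). Among the regulators they were 0.61 for Keap1 at 18 h (adjusted p = 2.57e-03), 0.71 for Mafg at 5 h (adjusted p = 8.17e-03) and 0.40 for Mafk at 18 h (adjusted p = 4.01e-03, and 0.079 with counts corrected for GC).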

How the results depend on the processing

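No target or regulator gene that was called in the main fit or in an alternative had the opposite sign in the other. Values called in neither fit were not checked for direction, nor were the genes of the wider lists. Over 2430 values of single genes under another setting, 2309 kept their side of the threshold, 44 lost the call and 77 gained it. On leaving out 1 library, 2482 of 2592 kept it. Of 300 counts of called genes, 259 stayed within 1.5 times, and 272 of 288 on leaving out libraries. The cause of the following changes was not tested, apart from the stricter criterion of the fold limit and the fewer libraries of the narrower fits.

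For the 9 target genes between genotypes, fitting only the libraries compared changed the 5 calls at 5 h to 0, and counts corrected for GC changed the 3 at 18 h to 5. A fold limit (log2 0.58) left 1 call at 1, 5 and 18 h, from 2, 5 and 3. Of the response differences, the 0 at 1 h became 1 under DESeq2, with only the libraries compared and without the libraries that stand apart, the 3 at 5 h became 1 with only the libraries compared, and the 1 at 18 h became 2 with all transcripts summed. For LPS, a fold limit (log2 1) changed 3 to 1 at 1 h in both genotypes, at 5 h 8 to 3 in BMDM-WT and 9 to 5 in BMDM-Nur77-KO, and at 18 h 8 to 5 in BMDM-Nur77-KO. Leaving out 1 library gave 1 to 2 genotype calls at 1 h, 3 to 5 at 5 h (3 without BMDM-Nur77-KO 5 h replicate 2 or BMDM-WT 5 h replicate 1 or 2), and 0 to 3 and 1 to 2 response differences at 5 and 18 h.

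For the 58 genes of the wider lists between genotypes, the 8 calls at 0 h became 13 under DESeq2, 14 with GC correction, 16 with only the libraries compared and 23 without the libraries that stand apart, and 4 with a fold limit. The 7 at 1 h became 11 with GC correction, 19 with only the libraries compared, 16 without those libraries and 1 with a fold limit. The 16 at 5 h became 7 with only the libraries compared and 6 with a fold limit, and the 23 at 18 h became 6 with a fold limit. Response differences at 1 h went from 0 to 1 (DESeq2), 4 (only the libraries compared) and 5 (without the libraries that stand apart), at 5 h from 2 to 4 under DESeq2 and GC correction, and at 18 h from 15 to 4 with a fold limit. With a fold limit the LPS calls at 1, 5 and 18 h went from 16, 39 and 48 to 5, 20 and 27 in BMDM-WT and from 17, 38 and 47 to 6, 19 and 29 in BMDM-Nur77-KO, and those from 5 to 18 h from 50 to 19 and from 50 to 24. Leaving out 1 library gave 4 to 7 genotype calls at 1 h, 11 to 27 at 5 h (27 without BMDM-Nur77-KO 5 h replicate 4), and 0 to 1 response differences at 1 h.

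Libraries with the same replicate number did not deviate alike throughout. Correlations of deviations from the group means were -0.46 to 0.35 over the 16 same-numbered pairs of the 2 genotypes at 1 time (median 0.0072). They were -0.79 to 0.56 for same-numbered pairs across times. In many libraries the deviations followed transcript GC content, so these correlations cannot show whether same-numbered libraries share a mouse. A replicate block moved the calls of the target genes between 5 and 18 h in BMDM-Nur77-KO from 9 to 8 (Txnrd1, adjusted p = 0.054) and the wider calls between genotypes at 5 and 18 h from 16 to 15 and from 23 to 22. GC correction shifted the median of all genes by up to 0.13 and DESeq2 size factors by up to 0.093. At this depth Nqo1 and Me1 rest on few counts.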
